A study of Mus musculus with 6 samples.

Results

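The 9 genes described here encode the ligands, receptors and first signalling proteins of the insulin-like growth factor (IGF) pathway: *Igf1*, *Igf2*, *Igf1r*, *Igf2r*, *Insr*, *Irs1*, *Irs2*, *Akt1* and *Akt2*. They were taken by gene symbol from a matrix of 55401 genes, in which each symbol stood on 1 row. RNA was sequenced from 6 libraries of C2C12, a line of mouse myoblasts able to fuse into myotubes, 2 d after the change to medium with 2% horse serum. The 3 *Phf2* KO libraries came from cells transfected with 4 pooled plasmids that carried Cas9, ZsGreen and guides against *Phf2*, a histone H3K9me2 demethylase. The 3 control libraries came from mock cells, labelled wild type, that carried the same kind of plasmid with a guide that has no match in the mouse genome. Both groups were sorted for ZsGreen, expanded and frozen before differentiation. Neither was cloned from single cells, and each was 1 pool of sorted cells, so a difference between the pools and an effect of *Phf2* cannot be told apart. The study expects no double-strand break in the mock cells, and states that it does not exclude an effect of such breaks on transcription. That effect cannot be told apart from an effect of *Phf2* here either. The study counts wells of 1 experiment as replicates, so the p-values measure the spread between wells.

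In muscle, IGF-I and IGF-II bind the IGF-I receptor, a tyrosine kinase closely related to the insulin receptor, and the active receptors phosphorylate the docking proteins IRS1 and IRS2. These recruit PI3K, whose lipid product brings the kinases AKT1 and AKT2 to the membrane, where they promote protein synthesis, glucose uptake and survival. The IGF-II receptor lacks a kinase, takes up IGF-II and carries it to lysosomes. Differentiating myoblasts make IGF-II themselves, and the ligand acts back on the cells that secrete it.

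All 9 genes passed the filter on low counts, and 2 of them differed between the groups in the test across 17310 genes: *Akt2* fell and *Irs1* rose in *Phf2* KO cells, each by a small amount. Among all genes tested, 6.48% passed the same threshold, an adjusted p under 0.05. The ligands *Igf1* and *Igf2*, the receptors *Igf1r*, *Igf2r* and *Insr*, and *Irs2* and *Akt1* did not pass it. At an unadjusted p under 0.05 the count was 4 of 9 (*Irs1*, *Irs2*, *Akt1* and *Akt2*), against 19.4% of all genes. The 9 log2 fold changes lay between -0.22 and 0.20, with a median of 0.011, and the median over all genes tested was -0.00096. *Phf2* itself was the check of the labels. Totals ran from 52526109 to 67502788 estimated counts a library, and levels are given as CPM, counts scaled to the library total with TMM factors, in the order of replicates 1, 2 and 3. The level of *Phf2* was 95.5 to 105 in the control libraries and 37.6 to 41.1 CPM in the *Phf2* KO libraries (log2 fold change -1.37, adjusted p = 8.32e-09).

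The starts of *Akt2* and *Irs1* are shown because these were the genes that differed. Each sequence is the 250 bases before the RefSeq start of the gene on GRCm38.p6, read 5′ to 3′ on the strand of the gene, and capitals mark the motif CANNTG. This motif is the E-box, a short site for a class of factors that includes MyoD and myogenin, and it reads the same on both strands. Any letters were accepted in its middle, so the capitals do not mark the site of a given factor. The *Akt2* window is chr7:27591302-27591551 on the plus strand and the *Irs1* window is chr1:82291440-82291689 on the minus strand.
Akt2: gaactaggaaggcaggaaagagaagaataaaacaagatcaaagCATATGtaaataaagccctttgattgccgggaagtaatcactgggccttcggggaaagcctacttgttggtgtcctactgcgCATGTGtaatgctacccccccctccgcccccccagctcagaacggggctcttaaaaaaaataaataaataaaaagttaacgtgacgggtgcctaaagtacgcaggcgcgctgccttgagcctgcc
Irs1: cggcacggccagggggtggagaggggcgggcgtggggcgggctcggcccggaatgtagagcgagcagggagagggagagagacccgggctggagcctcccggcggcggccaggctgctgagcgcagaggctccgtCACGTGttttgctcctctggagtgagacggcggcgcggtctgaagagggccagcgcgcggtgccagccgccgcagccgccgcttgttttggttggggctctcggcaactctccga
The *Akt2* window held 2 E-boxes and the *Irs1* window held 1, and 66.2% of the 32851 RefSeq windows of this length held at least 1. The windows differed in base composition, with 48.8% G+C for *Akt2* and 72.4% for *Irs1*, against a median of 52.4%. The table held 3 further *Akt2* windows, between 27596580 and 27607335, and 2 of these 3 had an E-box. In all, 15 windows were matched for 8 of the 9 genes. The FOXO motif GTAAACA, searched on both strands, lay in 1 of the 15, at *Akt1*, and in 3.17% of all windows. No chromatin measurement of these genes was used, so the letters describe the sequence and say nothing of binding.

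The levels per length were compared first, in TPM, a transcript abundance per length that the authors scaled within each library. In control cells *Akt1* was the highest of the 9 genes with 243 ± 3.24 TPM (SD, n = 3), and *Irs2* the lowest with 9.55 ± 0.83 TPM (SD, n = 3), 25.5-fold apart. Between them stood *Igf2* with 139 ± 12.2 TPM, *Akt2* with 98.6 ± 5.19 TPM, *Irs1* with 68.8 ± 5.61 TPM, *Igf2r* with 67.2 ± 2.40 TPM, *Igf1* with 65.0 ± 4.54 TPM, *Igf1r* with 21.6 ± 0.53 TPM and *Insr* with 16.2 ± 0.79 TPM (SD, n = 3 for each). The control libraries of neighbouring genes overlapped for *Irs1* and *Igf2r* and for *Igf2r* and *Igf1*, so these 3 genes were not separated by level. The order of the means was the same in *Phf2* KO cells. There *Akt2* (83.0 ± 3.85 TPM, SD, n = 3) and *Irs1* (79.9 ± 3.53 TPM, SD, n = 3) came to overlap, while in control cells the lowest *Akt2* library (93.6 TPM) stood above the highest *Irs1* library (75.3 TPM). In these cells the transcripts of the cytoplasmic kinases and of *Igf2* were thus more abundant per length than those of the receptors for IGF-I and insulin.

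**Figure D1:**
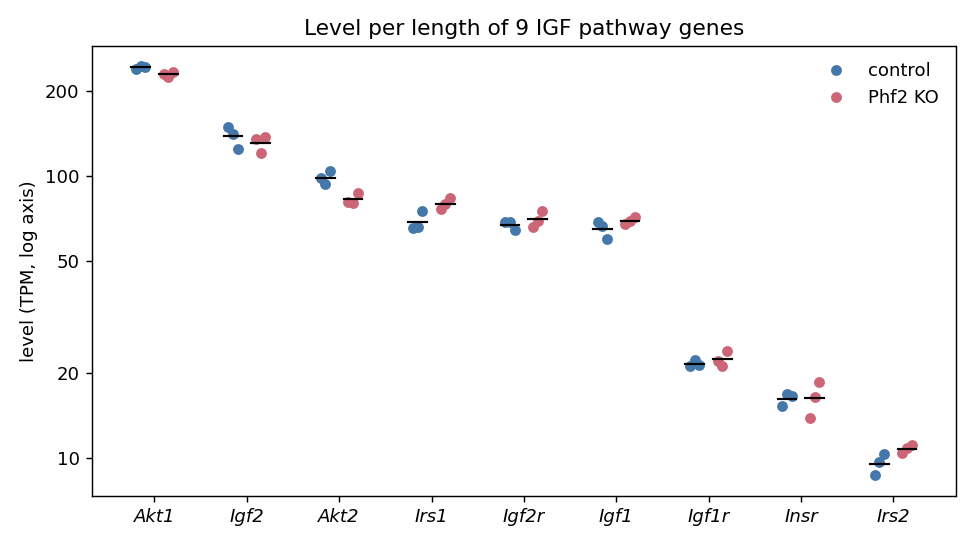
Level of the 9 genes in TPM on a log axis, ordered by the control mean, with a point for each of the 3 control and 3 Phf2 KO libraries and a bar at the group mean. Akt1 lies near 243 TPM and Irs2 near 9.55 TPM in control cells, and Akt2 and Irs1 are nearer to each other in Phf2 KO than in control.

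The ligand genes were examined next. *Igf1* (ENSMUSG00000020053.18, GRCm38 chromosome 10, 87858265 to 87937042, plus strand, 8 annotated transcripts) encodes IGF-I. Its level was 207, 205 and 183 CPM in control and 211, 212 and 211 CPM in *Phf2* KO libraries. The groups did not overlap on this scale, but the gap was small beside the spread of the controls, and on the TPM scale, where the highest control library held 68.5 TPM and the lowest *Phf2* KO library 67.9 TPM, they overlapped. The log2 fold change of *Igf1* was 0.094 (standard error 0.050, 95% interval -0.014 to 0.20, adjusted p = 0.339, quasi-likelihood test of edgeR). *Igf2* (ENSMUSG00000048583.16, chromosome 7, 142650766 to 142666816, minus strand, 9 transcripts) encodes IGF-II and is an imprinted gene. Its level was 260, 245 and 210 CPM in control and 258, 205 and 223 CPM in *Phf2* KO libraries. These ranges overlapped almost wholly. *Igf2* varied most between replicates of the 9 genes, with a coefficient of variation of 10.6% in control and 11.7% in *Phf2* KO libraries, and its log2 fold change of -0.061 had an interval from -0.33 to 0.21 (adjusted p = 0.845).

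The *Igf2* value depends on how reads were divided with *Gm49394*, a protein-coding gene on the same strand that shares 3596 exonic bases with it, 62.8% of the exonic bases of *Igf2*. *Gm49394* held between 415 and 1411 estimated counts in a library, while *Igf2* held between 10779 and 15857. With the 2 rows summed, the log2 fold change was -0.075 (adjusted p = 0.751 from the quasi-likelihood test). The antisense gene *Igf2os* shares 98 bases with *Igf2*. *Irs1* shares 2822 exonic bases with *Gm9747* on the opposite strand, which had a mean of 0.83 counts per library. The library kit keeps the strand, but the strand setting of the counting was not given in the sources used here.

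The receptor genes showed no difference that passed the test. *Igf1r* (ENSMUSG00000005533.10, chromosome 7, 67952827 to 68233668, plus strand) had 122, 111 and 122 CPM in control and 112, 120 and 121 CPM in *Phf2* KO libraries. The means were 118 ± 6.21 CPM and 118 ± 5.34 CPM (SD, n = 3), and the log2 fold change of -0.0032 had a 95% interval from -0.11 to 0.11 (adjusted p = 0.986). *Insr* (ENSMUSG00000005534.10, chromosome 8, 3122061 to 3279617, minus strand), the insulin receptor, had 67.9, 70.1 and 70.7 CPM in control and 66.2, 69.8 and 74.4 CPM in *Phf2* KO libraries. For *Insr* the control libraries lay inside the range of the *Phf2* KO libraries, with a log2 fold change of 0.011 (95% interval -0.10 to 0.13, adjusted p = 0.944). *Igf2r* (ENSMUSG00000023830.14, chromosome 17, 12682406 to 12769664, minus strand) encodes the receptor that clears IGF-II and is imprinted in the mouse. Its level was 283, 284 and 264 CPM in control and 275, 285 and 300 CPM in *Phf2* KO libraries, again with overlap, and the log2 fold change was 0.051 (95% interval -0.050 to 0.15, adjusted p = 0.631).

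The docking proteins lie directly below the receptors. *Irs1* (ENSMUSG00000055980.2, chromosome 1, 82233101 to 82291416, minus strand, 1 transcript) had 277, 280 and 317 CPM in control and 327, 338 and 342 CPM in *Phf2* KO libraries. Every *Phf2* KO library stood above every control library, but control replicate 3 was closer to the *Phf2* KO libraries than to the other control libraries. *Irs1* rose from 291 ± 22.0 CPM to 335 ± 7.88 CPM (SD, n = 3), by 15.1%, or 0.20 on the log2 scale (standard error 0.052, 95% interval 0.091 to 0.31, adjusted p = 0.0316 from the quasi-likelihood test). Among all genes tested, 3.22% were called higher. The call of *Irs1* was not kept by exactTest, the edgeR test named in the study's methods (adjusted p = 0.0774), by limma on log2(TPM + 1) (0.222) or in 4 of the 6 fits that left out a library, namely control replicate 1 (0.140), control replicate 2 (0.182), *Phf2* KO replicate 2 (0.119) or *Phf2* KO replicate 3 (0.124). Its log2 fold change stayed between 0.17 and 0.26 in these 6 fits.

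*Irs2* (ENSMUSG00000038894.7, chromosome 8, 10984681 to 11008458, minus strand, 1 transcript) was far less abundant than *Irs1*. It had 25.5, 28.4 and 30.1 CPM in control and 30.8, 31.6 and 31.6 CPM in *Phf2* KO libraries. The groups came close and did not overlap. The log2 fold change of *Irs2* was 0.16 (standard error 0.074, 95% interval 0.0045 to 0.32), close to that of *Irs1*, but its adjusted p was 0.244. The *Irs2* share of the summed TPM of *Irs1* and *Irs2* was 12.2% ± 0.54 in control and 11.9% ± 0.12 in *Phf2* KO libraries (SD, n = 3), and these overlapped (two-sided exact permutation test, p = 0.50, adjusted over 4 such shares p = 0.667).

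The AKT kinases held the clearest difference. *Akt2* (ENSMUSG00000004056.15, chromosome 7, 27591552 to 27640826, plus strand, 14 transcripts), the isoform best known for insulin-stimulated glucose uptake, had 197, 192 and 193 CPM in control and 167, 165 and 167 CPM in *Phf2* KO libraries. In CPM, replicates lay close to each other, and the gap between the groups was far wider than either spread. In TPM the libraries held 98.4, 93.6 and 103.9 in control and 80.9, 80.6 and 87.4 in *Phf2* KO. The groups did not overlap there either, but the gap between them was narrower than the range within each group. *Akt2* fell from 194 ± 2.86 CPM to 166 ± 1.29 CPM (SD, n = 3), with a log2 difference of -0.22 (standard error 0.041, 95% interval -0.31 to -0.14, adjusted p = 0.0049 from the quasi-likelihood test), which is a change of -14.4%. Among all genes tested, 3.26% were called lower. The fall held without each library in turn, with an adjusted p of at most 0.0307, and with exactTest (0.00531). It was smaller after a correction for the GC content of the transcripts (log2 fold change -0.18, adjusted p = 0.0158). Limma on log2(TPM + 1) gave a log2 fold change of -0.25 that did not pass the threshold (adjusted p = 0.110), in a fit that called 176 genes in all, against 1122.

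*Akt1* (ENSMUSG00000001729.14, chromosome 12, 112653821 to 112674884, minus strand, 9 transcripts), the isoform most tied to growth and survival, had 295, 304 and 299 CPM in control and 289, 276 and 279 CPM in *Phf2* KO libraries. All *Phf2* KO libraries were below all control libraries, by less than for *Akt2*. Its log2 fold change was -0.089 (standard error 0.040, 95% interval -0.18 to -0.0022, adjusted p = 0.245), and after the GC correction it was -0.036 (adjusted p = 0.698). The intervals of *Akt1* and *Akt2* overlapped. The balance between the kinases was therefore tested directly, as the *Akt2* share of the summed TPM of *Akt1* and *Akt2*. The share was 29.1%, 27.6% and 29.8% in control and 26.0%, 26.4% and 27.2% in *Phf2* KO libraries. The groups did not overlap, and the mean was 2.31 percentage points apart, but 3 libraries against 3 cannot give a p below 0.10 (two-sided exact permutation test, p = 0.10, adjusted over 4 shares p = 0.20).

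The remaining shares compare the other related genes. *Igf2* held 68.5%, 68.0% and 67.6% of the summed TPM of *Igf1* and *Igf2* in control, and 66.6%, 63.6% and 65.8% in *Phf2* KO libraries. The groups did not overlap, although neither ligand gene passed the test on its own (two-sided exact permutation test, p = 0.10, the smallest possible, adjusted p = 0.20). *Igf1r* held 57.2% ± 0.83 of the summed TPM of *Igf1r* and *Insr* in control and 58.1% ± 3.02 in *Phf2* KO libraries (SD, n = 3). The wider spread came from *Phf2* KO replicate 1 with 61.6%, without which the difference turned from 0.94 to -0.80 percentage points, and the groups overlapped (two-sided exact permutation test, p = 1.0).

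**Figure D2:**
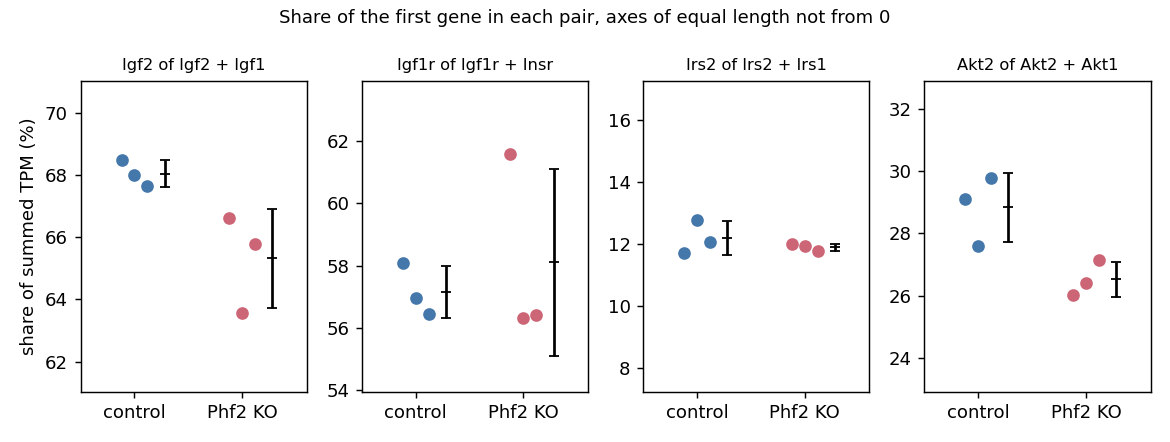
Share of the first gene in the summed TPM of each pair, in percent, for 3 control and 3 Phf2 KO libraries, with the mean and SD beside the points. The axes have equal length and do not start at 0. For Igf2 and Akt2 all Phf2 KO points lie under all control points, and those of Igf1r and Irs2 overlap.

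Over the 9 genes, groups were separated more often than they passed the test. For 5 of them (*Igf1*, *Irs1*, *Irs2*, *Akt1* and *Akt2*) the groups did not overlap in CPM, as for 25.1% of all genes tested. The estimated signs of these 5 were mixed: *Igf1*, *Irs1* and *Irs2* were above and both AKT genes below the control. The members of each class of proteins had the same sign for the docking proteins and for the kinases, and different signs for the ligands.

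**Figure D3:**
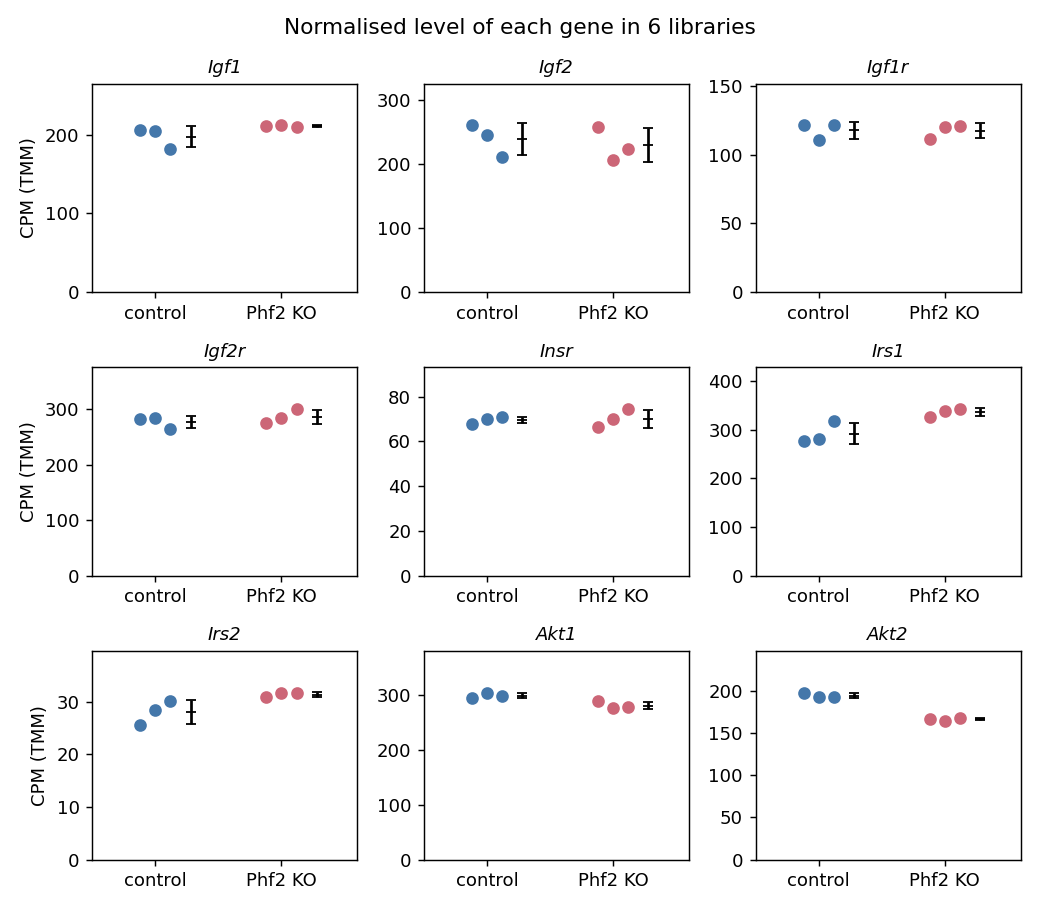
TMM-normalised CPM of each of the 9 genes in 3 control and 3 Phf2 KO libraries, with the mean and SD beside the points and each axis from 0. Akt2 is separated by more than the spread of either group, from 194 to 166 CPM, and Igf2 shows the widest spread.

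**Figure D4:**
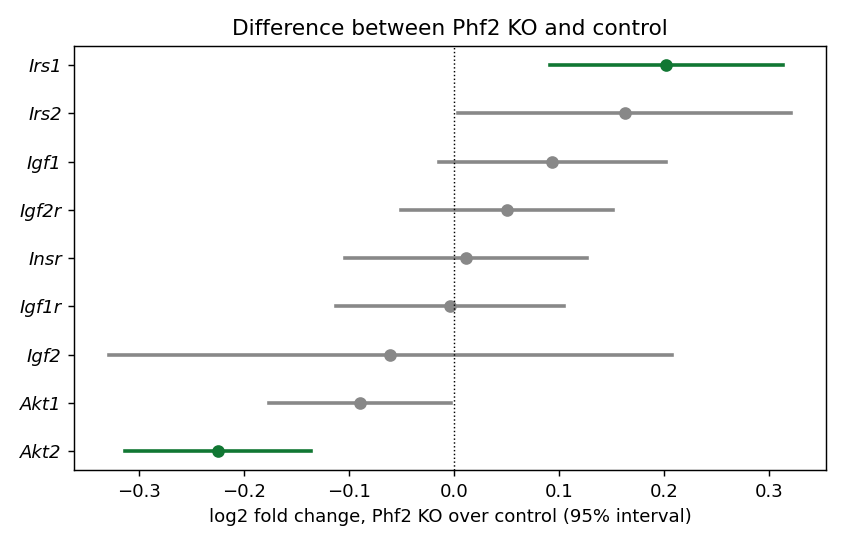
Log2 fold change of Phf2 KO over control with its 95% interval for the 9 genes, from edgeR's quasi-likelihood fit, green where the adjusted p was under 0.05. Akt2 at -0.22 and Irs1 at 0.20 are the genes that passed, and the interval of Igf2 is the widest.

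Markers of myotubes were examined beside these differences. The list of 8 myotube markers summed to between 7371 and 9390 TPM in control and between 6098 and 6885 TPM in *Phf2* KO libraries, 8 of 8 had negative log2 fold changes, and 4 passed the test (50% against 6.48% of all genes), among them *Ckm* (log2 fold change -0.78, adjusted p = 8.70e-05) and *Myog* (-0.34, adjusted p = 0.0221, but 0.0796 and 0.0909 when control replicate 1 or 2 was left out and 0.0768 and 0.129 when *Phf2* KO replicate 2 or 3 was). The number of the 8 that passed was 7 with exactTest and with DESeq2, and 2, 2 and 0 in the limma fits of TPM. It was 2, 3 and 7 when control replicate 1, 2 or 3 was left out, and 3, 3 and 2 when *Phf2* KO replicate 1, 2 or 3 was. *Acta1* had a log2 fold change of -0.36 with an adjusted p of 0.117, and of 0.000808 with the replicate number as a block. Most of the summed TPM came from *Acta1* and *Actc1*, with control means of 3725 and 1601 TPM. *Actc1* did not pass the quasi-likelihood test either (adjusted p = 0.215). *Tnnt3* had 898, 883 and 244 TPM in control libraries, but 537, 558 and 454 CPM. The part of the 8 markers in the differences of *Akt2* and *Irs1* was not tested. In bulk RNA, fewer cells of a type and less RNA per cell cannot be told apart. The 8 proliferation markers summed to 163 to 170 TPM in control and 154 to 166 TPM in *Phf2* KO libraries, and 0 of 8 passed the quasi-likelihood test, with 0 at an unadjusted p under 0.05 and 0 with DESeq2 or exactTest. The 10 markers of leukocytes, endothelium, adipocytes and epithelium summed to at most 0.52 TPM in a library, and 3 of them, *Adgre1*, *Plin1* and *Epcam*, had no count in any library.

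The genes whose pattern over the 6 libraries was most like that of each called gene were sought among the 10922 other genes whose mean reached 5 CPM. For *Akt2* these were *Cand2* (Pearson r = 0.997), *Sema6a* (0.996) and *Adamts7* (0.996). Their log2 fold changes were -0.52, -0.53 and -0.35. For *Irs1* they were *Smad4* (r = 0.996), *Ccng2* (0.993) and *Ptpn14* (0.990), with log2 fold changes of 0.21, 0.33 and 0.092, of which that of *Ptpn14* did not pass the test (adjusted p = 0.281). *Smad4* and *Ccng2* passed in 2 of the 6 fits without a library. Their adjusted p was 0.131 and 0.0881 without control replicate 1, 0.189 and 0.113 without control replicate 2, 0.120 and 0.0938 without *Phf2* KO replicate 2, and 0.123 and 0.107 without *Phf2* KO replicate 3. Such likeness was common over 6 libraries that share the group difference, since 510 genes had an r above 0.9 with *Akt2* and 444 with *Irs1*.

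The other genes of the pathway were read in the same fit, from 7 lists that hold 84 genes, of which 77 were tested. Of these, 3 were higher and 5 lower in *Phf2* KO cells past the threshold, 10.4% of those tested against 6.48% of all genes, and their median log2 fold change was -0.022. DESeq2 called 15 of 75. After the GC correction 6 were higher and 4 lower. With control replicate 1, 2 or 3 left out the number was 6, 4 and 12, and with *Phf2* KO replicate 1, 2 or 3 left out it was 9, 5 and 4.

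The IGF-binding proteins, which hold IGFs outside the cell, gave 3 of the 8 calls. Of 10 genes in this list, which includes the proteases that cleave them, 9 were tested, 1 rose and 2 fell, which is 33.3% against 6.48% of all genes. DESeq2 called 5, 1 higher and 4 lower, the GC correction left 2, and so did leaving out control replicate 2, *Phf2* KO replicate 2 or *Phf2* KO replicate 3. *Igfbp5*, which is induced as myoblasts differentiate, had 864, 847 and 878 CPM in control and 625, 560 and 552 CPM in *Phf2* KO libraries. The groups were wide apart, by -0.58 on the log2 scale (standard error 0.047, adjusted p = 1.57e-05). *Igfbp3* went the other way, from 45.1, 47.6 and 37.0 CPM to 82.5, 76.6 and 85.1 CPM, which is 0.91 on the log2 scale (standard error 0.085, adjusted p = 1.37e-04). *Igfbp6*, whose protein prefers IGF-II, had a log2 fold change of -0.21 and an adjusted p of 0.0492. It was above the threshold after the GC correction (0.105), with exactTest (0.0535) and without control replicate 1 (0.164), control replicate 2 (0.193), *Phf2* KO replicate 2 (0.186) or *Phf2* KO replicate 3 (0.186). *Igfbp7* was the most abundant of the list per length, with 395 TPM in control and 406 TPM in *Phf2* KO cells, and *Igfbp1* was listed at 0 in both.

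Between the docking proteins and AKT lie PI3K, which makes the lipid signal, and the phosphatases that remove it. Of 13 genes in this list 11 were tested, 2 rose and 1 fell, which is 27.3% of those tested against 6.48% of all genes. The limma fits of TPM called 0, with 3 at an unadjusted p under 0.05 in each. The count was 2 when control replicate 1 or 2 or *Phf2* KO replicate 2 or 3 was left out. *Pik3r3*, a regulatory subunit of PI3K, had 125, 129 and 137 CPM in control and 159, 175 and 186 CPM in *Phf2* KO libraries, which is 0.41 on the log2 scale (standard error 0.058, adjusted p = 7.43e-04). The other regulatory subunits, *Pik3r1* and *Pik3r2*, had log2 fold changes of 0.083 and -0.090 and did not pass. *Inppl1*, which encodes the 5-phosphatase SHIP2, had 267, 263 and 253 CPM in control and 215, 221 and 222 CPM in *Phf2* KO libraries, which is -0.25 on the log2 scale (standard error 0.042, adjusted p = 0.00254).

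Downstream of AKT, the share that passed the adjusted threshold was near the 6.48% of all genes. Of 18 genes of the mTOR complexes and their regulator TSC, 1 passed (5.56%), with 4 at an unadjusted p under 0.05. *Rptor*, the scaffold of mTOR complex 1, had a log2 fold change of -0.18 (adjusted p = 0.0237), from 116 ± 3.05 CPM to 102 ± 1.96 CPM (SD, n = 3). It was above the threshold after the GC correction (0.0619) and in all leave-out fits but that without control replicate 3: without control replicates 1 and 2 the adjusted p was 0.0867 and 0.136, and without *Phf2* KO replicates 1, 2 and 3 it was 0.0590, 0.0783 and 0.102. Of 12 AKT substrates and phosphatases, 1 passed (8.33%), but 7 had an unadjusted p under 0.05, which 19.4% of all genes reached. This count was 3, 3 and 7 when control replicate 1, 2 or 3 was left out. It was 5, 2 and 8 when *Phf2* KO replicate 1, 2 or 3 was. For 8 of the 12 the groups did not overlap in CPM, against 25.1% of all genes tested. *Foxo6*, a FOXO factor of low level here, had 12.2, 16.3 and 12.7 CPM in control and 8.37, 10.3 and 7.83 CPM in *Phf2* KO libraries, which is -0.64 on the log2 scale (standard error 0.14, adjusted p = 0.0136), which was above the threshold without control replicate 2 (0.0977), *Phf2* KO replicate 1 (0.0517) or *Phf2* KO replicate 3 (0.0850). The more abundant *Foxo1*, *Foxo3* and *Foxo4*, the FOXO factors known for their part in muscle atrophy, had log2 fold changes of 0.078, 0.16 and 0.17 with adjusted p-values of 0.512, 0.108 and 0.141. After the GC correction, alone or with the block, *Foxo3* and *Foxo4* were also called higher, and *Foxo3* was when control replicate 3 was left out.

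Of 13 receptor adaptors and brakes, 0 passed the quasi-likelihood test, with 5 at an unadjusted p under 0.05 (19.4% of all genes reached this), 0 by exactTest and 3 by DESeq2. With the replicate block *Nedd4*, a ubiquitin ligase, was called higher, as it was without *Phf2* KO replicate 1. Without control replicate 3, *Nedd4* and *Grb10* were called, the former higher and the latter lower, and after the GC correction *Shc1* was called higher. *Grb10* had a low level, with 1.74, 2.04 and 1.06 CPM in control and 0.65, 0.59 and 1.00 CPM in *Phf2* KO libraries. Its mean TPM went the other way, from 0.38 in control to 0.54 in *Phf2* KO, where the libraries held 1.30, 0.12 and 0.22 TPM. Of 12 genes of the Ras-MAPK arm, the other branch below the receptors, 0 passed, with 5 at an unadjusted p under 0.05, 0 by exactTest and 1 by DESeq2. The count at an unadjusted p was 1 after the GC correction, 2, 1 and 3 when control replicate 1, 2 or 3 was left out, and 5, 4 and 2 when *Phf2* KO replicate 1, 2 or 3 was. Of the 6 insulin family relatives, 2 were tested and 0 passed, by this test, exactTest or DESeq2 and also at an unadjusted p under 0.05.

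**Figure D5:**
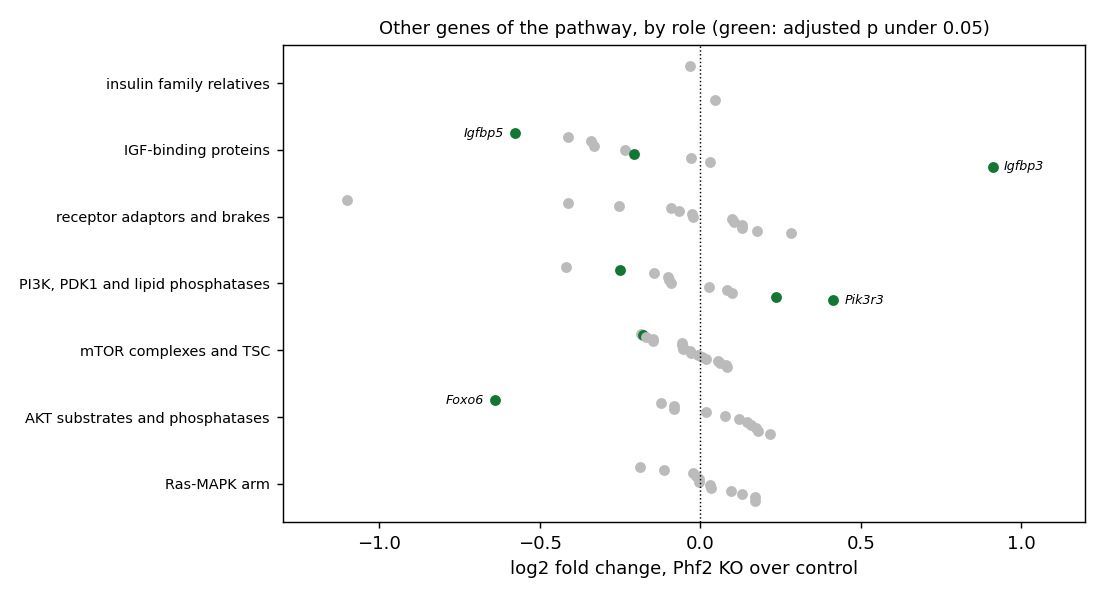
Log2 fold change of Phf2 KO over control for the 77 tested genes of the 7 pathway lists, 1 point a gene, green where the adjusted p was under 0.05. Names are printed for the green points beyond 0.4 in either direction, Igfbp3, Igfbp5, Pik3r3 and Foxo6, and the 8 green points lie on both sides of 0, from -0.64 for Foxo6 to 0.91 for Igfbp3.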

How the data were processed

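Gene expression was measured by RNA sequencing in 6 libraries, with groups and replicate numbers from the sample titles. The authors aligned paired-end reads to mm10 with HISAT2 and had StringTie produce the deposited estimated counts, which are whole numbers not scaled by library size. A count is not a read, since in genes of a single transcript with at least 500 counts the deposited coverage times length per count had a median of 75 bases in each library, while reads were 150 bp. Library totals ran from 52526109 to 67502788. The authors also deposited TPM for every library, a signal scaled within each library, and the rows of reference genes were used. Versions, annotation and strand setting of that processing were not given in the sources used here. Annotation here was GENCODE M21 (GRCm38), and promoter windows were from RefSeq.

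Tests used edgeR 4.0.16 in R 4.3.3: filterByExpr (minimum count 10), TMM, and the robust quasi-likelihood test over 17310 genes with Benjamini-Hochberg adjustment and a threshold of 0.05. Standard errors are the log2 fold change over the root of the F statistic. The study's methods name exactTest, which was an alternative with DESeq2 1.42.0, limma 3.58.1 on log2(TPM + 1) and log2(TPM + 0.1), other scalings and filters, counts divided by 4, a block and leaving out each library. Corrections for GC content, and the sum of *Igf2* and *Gm49394*, were added after seeing the data. Shares were compared by exact permutation tests. The main fit, exactTest, DESeq2, limma and the block were also run on simulated counts with the same relative spread in every gene. That run checked the code and does not measure how the tests perform on these data. The GC correction and the share tests were not simulated. Figures were drawn with Python 3.11.15.

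The genes and lists were chosen with earlier results of these data known. Named are *Phf2*, the 9 genes, up to 5 genes past the threshold of each pathway list, the 3 genes most like each called gene, and *Myog*, *Ckm* and *Acta1*. Other genes of the lists are named as context and were chosen after their values were seen. Values of some genes of the lists are not reported here.

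After subtraction of group means, a control and a *Phf2* KO library of equal number correlated with 0.235, 0.258 and 0.168 across 10923 genes. Those of different numbers were at most -0.0019. These values are not independent, since with 3 libraries a group the subtraction pushes some correlations below 0 when others are above it. Whether the numbers carry a pairing was not tested. Since the study used no block, a block on the replicate number was tried as an alternative.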

Additional observations from a re-analysis of the deposited data

How the results depend on the processing

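Over the 14 alternatives with all 6 libraries, *Akt2* passed the threshold in 11 and *Irs1* in 10. The 3 that ended the call of *Akt2* used TPM, with log2 fold changes of -0.246 for log2(TPM + 1), -0.249 for log2(TPM + 0.1) and -0.246 for log2(TPM + 1) without a filter, and these also ended that of *Irs1* (0.214, 0.217 and 0.214), as did exactTest (0.203). The number of the 9 genes past the threshold was 1 with exactTest and 0 in each of the 3 limma fits of TPM, with 2, 2 and 3 at an unadjusted p under 0.05, and 1 to 2 without a library. Pathway genes past it were 15 with DESeq2, 2, 2 and 0 in the limma fits, and 4 to 12 without a library. For all genes the limma fits gave 176, 169 and 4, and the fits without a library 468 to 1039. With the replicate block the log2 fold changes were -0.224 for *Akt2* and 0.205 for *Irs1*, 2 of the 9 genes, 11 pathway genes and 1316 genes in all passed, and the block changed no other call of the 9 genes. Signs turned where the value was near 0. *Igf1r* was at 0.0488, 0.0507 and 0.0488 in the limma fits and at -0.0466 to 0.0347 without a library. *Insr* was at -0.00525, -0.00604 and -0.00525 in the limma fits, at -0.0195 after the GC correction and -0.0203 with the block added, and at -0.0328 to 0.0519 without a library. *Igf2* ran from -0.155 to 0.0121 without a library, and *Irs1* from 0.165 to 0.264. The cause of these changes was not tested. The differences of the 4 shares moved by less than 1 SD of the more variable group, but that of *Igf1r* turned from 0.94 percentage points to -0.20 on CPM and -0.80 without *Phf2* KO replicate 1, and that of *Irs2* from -0.29 to 0.0089 without control replicate 2. The precision is limited by 3 libraries in each group, and the intervals cover the spread between wells only.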
